A study of Rattus norvegicus with 10 samples.

Results

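Genes of the amino acid response and of serine synthesis were measured in the whole mammary gland of SD female rats on postnatal day 21. The 10 genes were Atf4, Ddit3, Trib3, Sesn2, Asns, Phgdh, Psat1, Slc3a2, Slc7a11 and Farsb, and a probe set, the group of oligonucleotides that reads a transcript on the array, was taken when the platform annotation gave it that gene symbol and no other. The genes were chosen because the 2 diets differ in protein source, and Farsb was selected on its measured difference between the diets, so its diet values are given below without a test. Of the 10 genes, 8 had at least 1 probe set, 10 probe sets in all, out of 10411 genes with a probe set on the array. No probe set was listed for Slc7a11, the cystine transporter subunit, or for Sesn2, a leucine sensor, under these symbols, and both were not analysed here. The 3 probe sets of Trib3 lay below the filter on low signal, a mean log2 signal of 7.47, so 7 of the 10 genes were tested.

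The AIN-93G formula, a purified diet for rodents, was fed to both groups from gestation day 4 until weaning. Its protein was casein in the first group and soy protein isolate in the second, with 5 arrays in each. The tissue was the whole gland, so epithelium, fat, lymph node and adjoining muscle were measured together, and fewer cells of a type and less RNA per cell cannot be told apart. The labels mention RNA pools and replicate cRNA targets, so the p-values measure the spread between arrays, which may be partly technical. No pair of arrays held identical values.

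Cells that lack an amino acid hold uncharged tRNA, which activates the kinase GCN2 (Eif2ak4). The kinase phosphorylates the translation factor eIF2, general translation slows, and the mRNA of the transcription factor Atf4 is translated more. ATF4 protein then binds C/EBP-ATF response elements and turns on genes that make, import and charge amino acids, among them Asns and the serine synthesis enzymes. Serine made by Phgdh and Psat1 also feeds glycine and one-carbon metabolism.

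The mean log2 signal of fixed cell type markers showed how the glands differed in make-up. Adipocyte markers lay between 10.70 and 11.79 over the 10 arrays, luminal epithelial markers between 6.71 (casein 6) and 10.28 (casein 7), and lymph node markers between 9.07 and 9.84 in all arrays but casein 6 and soy 149, at 6.46 and 6.34. Skeletal muscle markers were at 12.05 to 13.32 in casein 6, soy 147, soy 149 and soy 157 and at 6.71 to 8.36 in the other arrays. Fat was thus read strongly in every array, whereas epithelial signal was low in casein 6 and in soy 159 (6.86). As a sign of RNA quality, the actin 3' to 5' ratio in log2 averaged 0.46 ± 0.14 over the casein arrays and 0.57 ± 0.06 over the soy arrays (SD, n = 5 each). Its p was 0.15 by exact permutation, two-sided, where 0.0079 is the smallest possible. The Gapdh ratio averaged 0.31 ± 0.18 and 0.47 ± 0.13 (SD, n = 5 each), a difference of 0.16 in the same direction (exact permutation p = 0.17). The part of RNA quality in the differences between diets was not tested.

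Promoter sequence is shown for 3 members, Trib3, Psat1 and Slc3a2, as examples of each searched motif before a start site. RefSeq's promoter table (GRCr8, 250 bases before to 50 after a start) listed 11 promoters for all 10 genes. The C/EBP-ATF response element, TGATGNAA on either strand, was present in the promoter of 1 gene, Trib3, and in 3.98% of all 33469 promoters. Its match lay 21 to 14 bases before the start, on the opposite strand, and stands in capitals in the 250 bases before the start at chr3:161275534-161275783 (minus strand).
Trib3: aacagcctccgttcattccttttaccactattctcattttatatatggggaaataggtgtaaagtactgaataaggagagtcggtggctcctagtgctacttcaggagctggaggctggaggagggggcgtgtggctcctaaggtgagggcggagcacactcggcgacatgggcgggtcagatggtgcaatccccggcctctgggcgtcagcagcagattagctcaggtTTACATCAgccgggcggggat

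The 7-letter core GATGNAA, contained in the longer motif and added after the promoters were seen, was present in 12.1% of all promoters. Among the members it was in Trib3, in Psat1, 54 to 48 bases before the start, and in Slc3a2 after the start. The antioxidant response element, TGACNNNGC on either strand, was also in 12.1% of promoters, and it lay 45 to 37 bases before a start of Slc3a2, 40 to 32 bases before that of Sesn2, and after the start in Phgdh. The 30 bases around the matches in capitals were at chr1:222645444-222645473 for Psat1 and at chr1:215039696-215039725 for Slc3a2, both on the minus strand. A match is a description of the letters and not a bound site, and the absence of a match in Asns or Atf4 says only that these letters were not in this window.
Psat1: ccgccctgcctTTGCATCcggagacgcggg
Slc3a2: gcggatcgggGCGGAGTCAtgggtcacttc

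The comparison of soy with casein asks whether protein source was accompanied by a different level of these transcripts. None of the 6 tested members other than Farsb passed the test between the diets, and each had arrays that overlapped between the diets. In limma 0 of 9520 probe sets, or 0%, had an adjusted p under 0.05, and 433, or 4.55%, had an unadjusted p under 0.05. None of these 6 members had an unadjusted p under 0.05. The plot of member probe sets by diet shows each array.

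**Figure D1:**
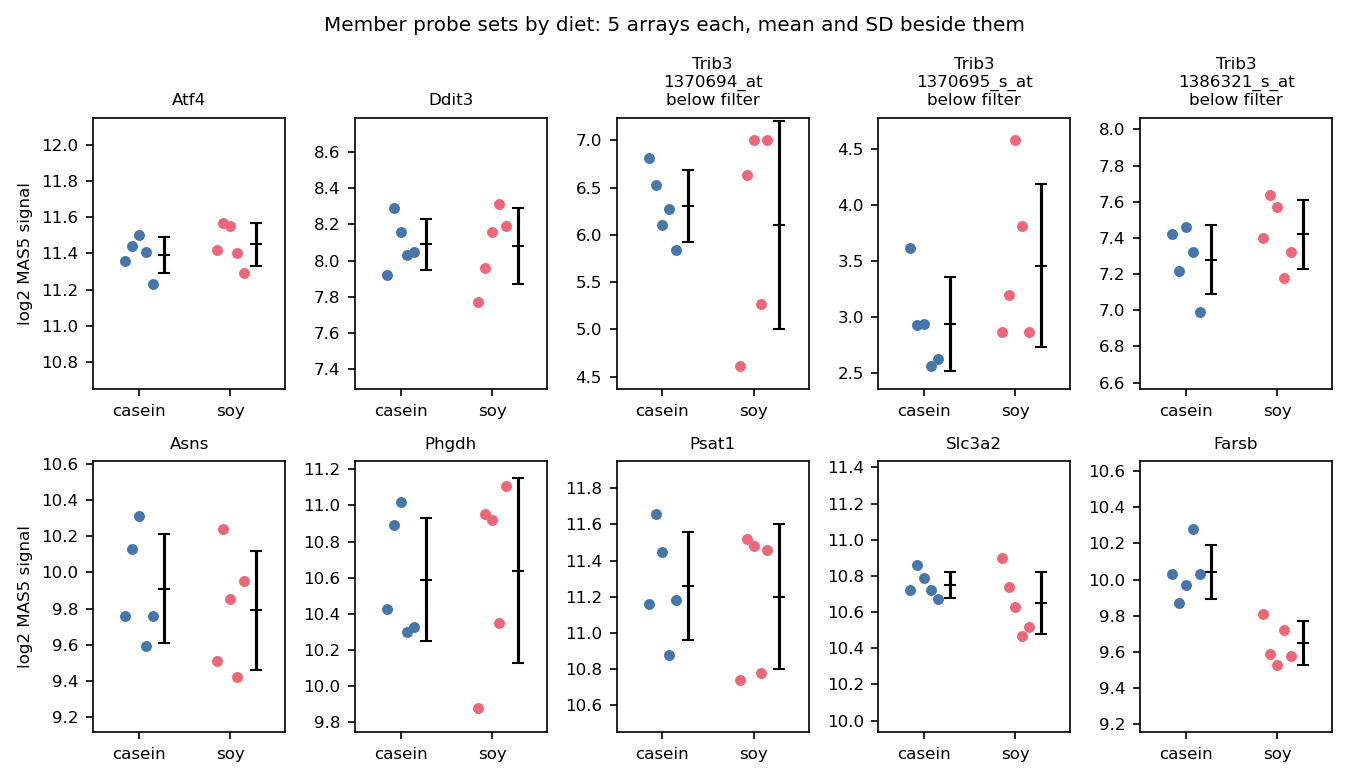
Log2 MAS5 signal (y axis) of the 10 member probe sets in 5 casein arrays (blue) and 5 soy arrays (red); each point is 1 array and the bar beside it gives the mean and SD. The y axes differ between panels and do not start at 0; the diets overlap in every panel but that of Farsb, which was chosen by its diet difference.

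Among the regulators, Atf4 had the smallest spread within diets of all members tested. Its probe set, 1367624_at, had a log2 signal of 11.36, 11.44, 11.50, 11.41 and 11.23 in casein 10, 18, 20, 6 and 7, and 11.42, 11.57, 11.55, 11.40 and 11.29 in soy 147, 149, 155, 157 and 159. Casein 7 was lowest and soy 149 highest, only 1.26-fold apart. Soy exceeded casein by 0.06 ± 0.09 in log2 (SE, n = 5 per diet; limma adjusted p = 0.99), and the casein mean was passed in 4 of 5 soy arrays. The within-diet SD of Atf4, 0.11, exceeded that of only 4.3% of the probe sets tested, whose median was 0.23. The array reads Atf4 mRNA, while the response acts first on its translation.

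Ddit3 encodes CHOP, a stress-induced transcription factor that acts with ATF4. In log2 units 1369590_a_at was at 7.92, 8.29, 8.16, 8.03 and 8.05 in casein 10, 18, 20, 6 and 7, and 7.77, 7.96, 8.16, 8.31 and 8.19 in soy 147, 149, 155, 157 and 159. Soy arrays were both the lowest (soy 147) and the highest (soy 157), and the difference between diets was -0.01 ± 0.13 (SE; limma adjusted p = 1.0). With 1 array left out it turned to 0.041 without casein 18, 0.0069 without casein 20, 0.067 without soy 147 and 0.019 without soy 149.

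Trib3 encodes a pseudokinase that ATF4 and CHOP induce and that restrains both. None of its 3 probe sets was tested. The brightest, 1386321_s_at, lay at 6.99 to 7.46 in casein and 7.18 to 7.64 in soy, with a difference of 0.14 and no test. The probe set 1370694_at lay at 5.84 to 6.81 in casein and at 4.61 (soy 147), 5.27 (soy 157), 6.63 (soy 149), 7.00 (soy 155) and 7.00 (soy 159) in soy, with a difference of -0.21. That difference was 0.17 without soy 147, 0.002 without soy 157, 0.12 with the muscle signal as a covariate and 0.68 without the 4 arrays of highest muscle signal. The third, 1370695_s_at, lay at 2.56 to 4.58, a signal of 5.9 to 23.9, with a difference of 0.53. The probe sets thus differed in sign, and all 3 had overlapping diets.

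Asns, asparagine synthetase, makes asparagine from aspartate. Its probe set, 1387925_at, was at 9.76, 10.13, 10.31, 9.59 and 9.76 in casein 10, 18, 20, 6 and 7, and 9.51, 10.24, 9.85, 9.42 and 9.95 in soy 147, 149, 155, 157 and 159. Casein 20 and soy 149 were highest and soy 157 lowest, 1.85-fold under casein 20. The difference between diets was -0.12 ± 0.18 (SE; limma adjusted p = 0.99), and it ran from -0.23 to -0.021 with 1 array left out.

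Phgdh, phosphoglycerate dehydrogenase, catalyses the entry step of serine synthesis from a glycolytic intermediate. The log2 signal of 1367811_at was 10.43, 10.89, 11.02, 10.30 and 10.33 in casein 10, 18, 20, 6 and 7, and 9.88, 10.95, 10.92, 10.35 and 11.11 in soy 147, 149, 155, 157 and 159. Soy held both the highest array, soy 159, and the lowest, soy 147, 2.33-fold apart, the widest range among the members tested. The difference between diets was 0.05 ± 0.24 (SE; limma adjusted p = 1.0). Its sign turned without casein 6 (-0.026), casein 7 (-0.018), soy 149 (-0.029), soy 155 (-0.021) or soy 159 (-0.069), and it was 0.24 at most.

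Psat1, phosphoserine aminotransferase, carries out the next step. For 1372665_at the log2 signal was 11.16, 11.66, 11.45, 10.88 and 11.18 in casein 10, 18, 20, 6 and 7, and 10.74, 11.52, 11.48, 10.78 and 11.46 in soy 147, 149, 155, 157 and 159. Soy 147 and soy 157 were lowest and casein 18 highest. The difference was -0.07 ± 0.20 (SE; limma adjusted p = 1.0), and it was 0.031 without casein 18, 0.048 without soy 147 and 0.037 without soy 157.

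The spread of these enzymes lay within the diets rather than between them. The within-diet SD was 0.31 for Asns, 0.43 for Phgdh and 0.35 for Psat1, above those of 76.5%, 90.1% and 82.7% of the probe sets tested. The 5 highest arrays were the same for all 3 genes, namely casein 18, casein 20, soy 149, soy 155 and soy 159. They lay at 9.85 to 10.31 for Asns, 10.89 to 11.11 for Phgdh and 11.45 to 11.66 for Psat1, while the other 5 arrays lay at 9.42 to 9.76, 9.88 to 10.43 and 10.74 to 11.18. The gap between these ranges was 0.08 for Asns, 0.46 for Phgdh and 0.27 for Psat1.

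Over the 10 arrays Asns and Psat1 had a Pearson r of 0.90 (permutation p = 8.2e-04, adjusted p = 0.011 over 21 pairs of members) and a Spearman rho of 0.84 (permutation p = 0.0039, adjusted p = 0.076). Without casein 20 and soy 149, the arrays farthest from the median of Asns, r was 0.97. For Asns and Phgdh r was 0.83 (permutation p = 0.0043, adjusted p = 0.03) and rho 0.81 (permutation p = 0.0073, adjusted p = 0.076), with r of 0.80 without the same arrays. Neither pair passed by rank. Within the 6 arrays with low muscle signal r was 0.67 for Asns with Psat1 (exact permutation p = 0.14) and 0.68 for Asns with Phgdh (exact permutation p = 0.13). The highest r of the 21 pairs in these arrays was that of Ddit3 with Psat1, 0.95 (exact permutation p = 0.0056, not adjusted). Over all 10 arrays that r was 0.38. For Phgdh and Psat1 r was 0.90 (permutation p = 0.001, adjusted p = 0.011), but rho, 0.72, did not pass (permutation p = 0.023, adjusted p = 0.16). Within the 6 arrays with low muscle signal r was 0.81 (exact permutation p = 0.071). A gap of 0.46 in Phgdh and of 0.27 in Psat1 parts the 5 highest arrays from the others, which are themselves uneven. In Phgdh soy 147 lay at 9.88 and casein 6, next lowest, at 10.30. In Psat1 soy 147, soy 157 and casein 6 lay at 10.74 to 10.88, and casein 10 and casein 7 at 11.16 and 11.18. Among 5 arrays a relation cannot be tested. Each Asns pair above also holds 1 of these genes, and the 5 highest arrays of Asns were the same. The pooled r and p of these pairs thus include the gap between the 5 highest arrays and the others. They do not show a relation within either group of arrays. The other 18 pairs, each with at most 1 of Asns, Phgdh and Psat1, had r from -0.53 to 0.55 and none passed. Their smallest unadjusted permutation p was 0.095. Pairs with Farsb include the difference between diets by which it was chosen, and they count in the adjustment over 21 pairs. For Farsb with Psat1 r was -0.39 over the 10 arrays but -0.94 within soy and -0.94 within casein. With Phgdh it was -0.47, -0.95 and -0.72, and with Slc3a2 0.35, 0.43 and -0.62. The values within a diet rest on 5 arrays and were not tested.

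Atf4 did not pass with any of these enzymes. Its r was 0.40 with Asns (rho 0.48, permutation p = 0.25 and 0.17), 0.33 with Phgdh (rho 0.30, p = 0.34 and 0.41) and 0.30 with Psat1 (rho 0.45, p = 0.40 and 0.19), in the same permutation test with adjusted p = 0.57 for r and 0.54 for rho. The plot of the enzymes array by array shows the order of the arrays beside Atf4.

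**Figure D2:**
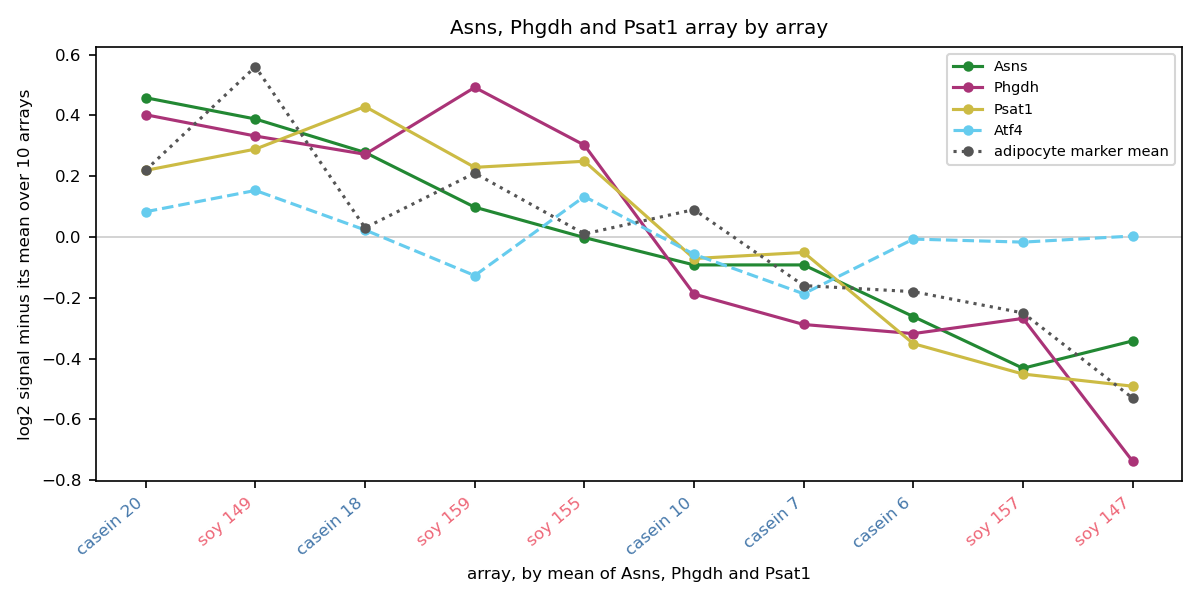
Log2 signal minus its own mean over the 10 arrays (y axis) for Asns, Phgdh, Psat1, Atf4 (dashed) and the mean of the adipocyte markers (dotted), with arrays ordered on the x axis by the mean of the 3 enzymes (blue labels casein, red labels soy). The enzymes are above their means or level with them in the 5 arrays on the left, from both diets, and Atf4 spans 0.34 in all.

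Fat and muscle marker levels are set beside these enzymes. The adipocyte list held 11 tested genes of 14, and none of these was near 0, the lowest array value being 7.32 for Cebpa in soy 147. The adipocyte mean was 11.45 in casein 20, 11.79 in soy 149, 11.26 in casein 18, 11.44 in soy 159 and 11.24 in soy 155, then 11.32 in casein 10, 11.07 in casein 7, 11.05 in casein 6, 10.98 in soy 157 and 10.70 in soy 147. Of 49 relations between members, Farsb included, and marker lists, computed after the data were seen, none passed after adjustment. The highest were adipocyte markers with Asns (r = 0.84, permutation p = 0.0018, adjusted p = 0.06; rho = 0.88, permutation p = 0.0014, adjusted p = 0.057) and with Phgdh (r = 0.84, permutation p = 0.0024, adjusted p = 0.06; rho = 0.87, permutation p = 0.0023, adjusted p = 0.057). With the 2 arrays farthest from the median of each gene left out, r was 0.76 for Asns and 0.73 for Phgdh. For Psat1 r was 0.79 (permutation p = 0.0045, adjusted p = 0.074), rho was 0.72 (permutation p = 0.023, adjusted p = 0.37), and r was 0.59 without soy 147 and soy 157. Within the 6 arrays with low muscle signal the adipocyte relation had r of 0.59 for Asns (exact permutation p = 0.20), 0.72 for Phgdh (exact permutation p = 0.12) and 0.33 for Psat1, with rho of -0.09 (exact permutation p = 0.51 for r). The pooled r of Phgdh and of Psat1 with these markers also includes the gap between their highest arrays and the others.

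Skeletal muscle markers, 14 tested of 19, were high in the 3 arrays with the lowest mean of the enzymes, at 13.14 in casein 6, 13.32 in soy 157 and 12.05 in soy 147. They were also high, at 12.88, in soy 149, where the enzymes were among the highest. Because muscle signal falls into separate sets of 4 and 6 arrays, no pooled r is given. Within the 6 arrays of low muscle signal r was -0.49 for Asns (exact permutation p = 0.30), -0.42 for Phgdh (exact permutation p = 0.38) and -0.28 for Psat1 (exact permutation p = 0.64). The part of fat or muscle content in the levels of these enzymes was not tested.

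The genes whose signals over the 10 arrays were most like each member are given as a description, by Pearson r among single-gene probe sets tested; all share the make-up of the same glands. For Asns they were Dhtkd1 (0.971), Cdkn2c (0.969) and Pdk1 (0.941), with Psat1 in place 17 (0.895) and Phgdh in place 65 (0.827). For Phgdh they were Gm2a (0.968), Dgat1 (0.959) and Capn2 (0.958), with Psat1 in place 20 and Asns in place 75. For Psat1 they were Tmco1 (0.961), Gm2a (0.933) and Abca3 (0.931), with Phgdh in place 11 and Asns in place 14. Correlations as high as those among the enzymes were thus found with many other genes on these arrays. Atf4 was most like Fitm2 (0.817), Dnajc15 (0.809) and Mdh1 (0.802), and Ddit3 most like Commd9 (0.988), Ufc1 (0.876) and Nfyc (0.875).

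Slc3a2 encodes CD98 heavy chain, the partner that brings several amino acid transporters, the Slc7a11 product included, to the cell surface. The probe set 1398771_at was at a log2 signal of 10.72, 10.86, 10.79, 10.72 and 10.67 in casein 10, 18, 20, 6 and 7, and 10.90, 10.74, 10.63, 10.47 and 10.52 in soy 147, 149, 155, 157 and 159. The highest array and the 3 lowest were soy. The difference between diets was -0.10 ± 0.10 (SE; limma adjusted p = 0.99), with 4 of 5 soy arrays below the casein mean, and it ran from -0.16 to -0.055 with 1 array left out. Slc3a2 was most like Rcn2 (0.948), Paip1 (0.918) and Bicd2 (0.917).

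Farsb encodes the beta subunit of the cytosolic phenylalanyl-tRNA synthetase, which charges tRNA with phenylalanine. It was chosen by its diet difference, so the following values describe it and support nothing. The log2 values of 1371453_at were 10.03, 9.87, 9.97, 10.28 and 10.03 in casein 10, 18, 20, 6 and 7, and 9.81, 9.59, 9.53, 9.72 and 9.58 in soy 147, 149, 155, 157 and 159. Every soy array lay below every casein array, with soy 147 and casein 18 nearest to each other, and the difference was -0.39 ± 0.10 (SE). The diets did not overlap for 76 of 9520 probe sets, or 0.798%, and 34 of these were lower in soy. With 1 array left out the difference of Farsb ran from -0.43 to -0.33. Farsb was most like Vcp (0.927), Kdm8 (0.924) and Mkln1 (0.892).

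The synthetase is made of alpha and beta subunits, and Farsa, which encodes the alpha subunit, was read by a separate probe set, whose log2 signal was 8.77, 8.23, 8.58, 7.50 and 8.52 in casein 10, 18, 20, 6 and 7, and 7.89, 7.38, 8.70, 8.14 and 8.17 in soy 147, 149, 155, 157 and 159. The diets overlapped throughout. The lowest arrays, soy 149 and casein 6, were those with low lymph node signal, and both also had high muscle signal (12.88 and 13.14). Soy 147, next lowest at 7.89, had high muscle signal (12.05) but a lymph node signal of 9.07. The part of either tissue was not tested. The difference was -0.26 ± 0.27 (SE; limma adjusted p = 0.99), and it ran from -0.47 to -0.096 with 1 array left out. The probe set of Fars2, the mitochondrial enzyme, lay below the filter and was not tested.

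The other tRNA charging genes, synthetases and the accessory proteins Aimp1, Aimp2 and Eef1e1 of their complex, were mostly on the lower side in soy by small amounts. Of 20 tested, 19 had a negative and 1, Sars1, a positive difference, against 52.7% negative among all 9520 probe sets. The median was -0.112, against -0.010 over all probe sets. None passed the adjusted test in limma, and 0 had an unadjusted p under 0.05, where 4.55% of all probe sets did. The smallest p were those of Cars1, which charges cysteine tRNA (-0.35 ± 0.18, SE), Eprs1, the glutamyl-prolyl enzyme (-0.17 ± 0.09), Wars1, the tryptophanyl enzyme (-0.18 ± 0.10), and Hars1, the histidyl enzyme (-0.25 ± 0.17), with limma adjusted p = 0.98 for all 4. The count and median depended on single arrays. Without soy 149, 13 of 20 were negative with a median of -0.098, and without casein 18 the median was -0.037 with 18 negative. Without soy 157 the median was -0.058 with 17 negative. With the 4 arrays of highest muscle signal left out, 13 were negative with a median of -0.061, and with muscle signal as a covariate 16 were negative with a median of -0.057. The mean over these genes per array was 9.44 in soy 149 and 9.48 in soy 157, and 9.62 to 9.79 in the other 8 arrays.

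**Figure D3:**
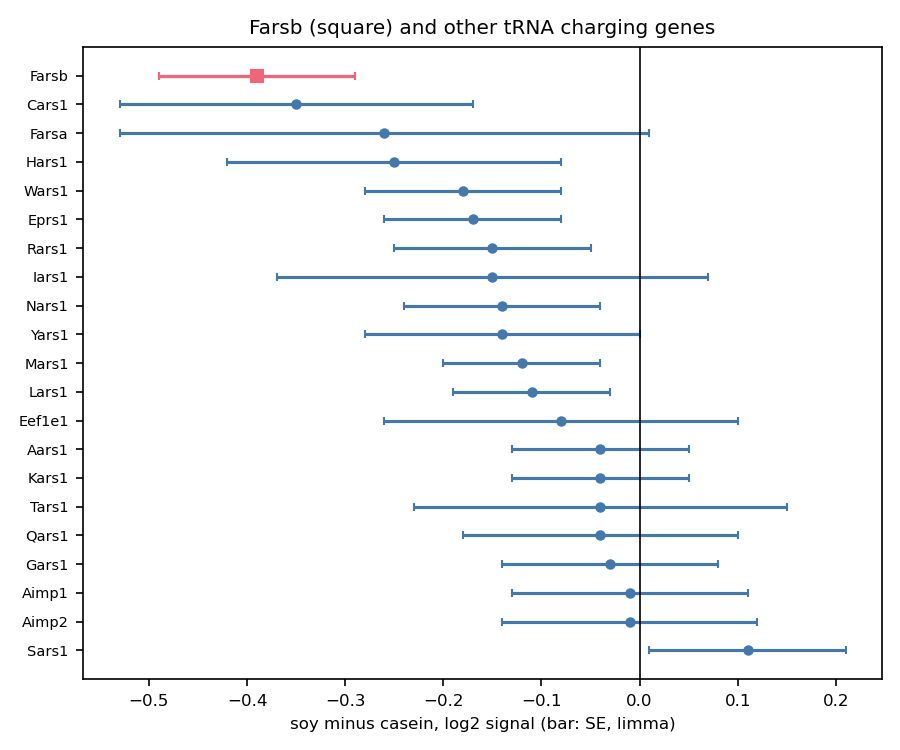
Soy minus casein difference in log2 signal (x axis, points) with its standard error from limma (bars) for Farsb (square), chosen by this difference, and 20 other tRNA charging genes (circles). Only Sars1 lies to the right of 0, and none of the 20 passed the adjusted test.

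In the other lists of related genes 0 members passed the adjusted test in limma, and counts of unadjusted p under 0.05 are set beside the 4.55% of all probe sets. The lists share genes. Slc38a2, Slc6a9, Slc7a5, Slc1a5 and Slc7a1 are counted both as ATF4 and CHOP targets and as transporters. Mthfd2, Aldh18a1, Eif4ebp1 and Ddit4 are also counted among these targets and in another list. Of the genes that sense uncharged tRNA and control eIF2, 16 were tested, 7 positive and 9 negative, with a median of -0.007 and none with an unadjusted p under 0.05. With the mean of a gene's tested probe sets in place of its brightest, 10 were positive and 6 negative, with a median of 0.018. The differences were -0.01 ± 0.13 (SE) for the amino acid sensor Eif2ak4 and -0.20 ± 0.11 for Gcn1, its activator. They were -0.18 ± 0.12 for Eif2ak3, the ER stress kinase PERK, and 0.22 ± 0.11 each for Eif2b1 and Eif2b5, subunits of the eIF2 exchange factor. Eif2ak4 turned in sign without casein 20 (0.042), casein 7 (0.051) or soy 159 (0.041).

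Of other ATF4 and CHOP targets and partners, 17 were tested, 9 positive and 8 negative, with a median of 0.003. With the mean of a gene's tested probe sets, 7 were positive and 10 negative, with a median of -0.076. Nupr1, a stress-induced chromatin protein, and Cebpb, a bZIP partner of ATF4, had an unadjusted p under 0.05. Nupr1 was at 8.60, 8.54, 9.74, 9.88 and 8.89 in casein 10, 18, 20, 6 and 7 and at 10.00, 10.24, 9.93, 9.76 and 10.21 in soy 147, 149, 155, 157 and 159. All soy arrays were high, and so were casein 20 and casein 6, with casein 6 above soy 157. The difference was 0.90 ± 0.26 (SE; limma unadjusted p = 0.0045, adjusted p = 0.98), with 5 of 5 soy arrays above the casein mean of 9.13, and it ran from 0.75 to 1.09 with 1 array left out. Cebpb was at -0.33 ± 0.14 (SE; limma unadjusted p = 0.037, adjusted p = 0.98), Pck2, mitochondrial PEPCK, at -0.31 ± 0.16 and the glutamine transporter Slc38a2 at -0.22 ± 0.16. Atf3 lay below the filter.

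Serine, glycine and one-carbon enzymes downstream of Phgdh and Psat1 were tested for 9 genes, 1 positive and 8 negative, with a median of -0.058 and none with an unadjusted p under 0.05. Psph, the phosphatase that completes serine synthesis, was at -0.37 ± 0.21 (SE), and its 5 highest arrays were not those of the other serine enzymes, since soy 149 lay at 7.82 against 9.07 in casein 18. Shmt2, which converts serine to glycine in mitochondria, was at -0.04 ± 0.18 and at 9.01 in soy 149, its lowest array. It turned in sign without casein 20 (0.022) or soy 149 (0.11). Mthfd1, a folate enzyme, was at -0.18 ± 0.09, Gcsh, of the glycine cleavage system, at -0.15 ± 0.17, and Cbs, the only positive member, at 0.31 ± 0.17. Without soy 149, 4 of the 9 were negative with a median of 0.034, and with the muscle signal as a covariate 3 were negative with a median of 0.076. Without the 4 arrays of highest muscle signal 7 were negative with a median of -0.043, and without soy 155 the median was -0.203.

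Amino acid transporters other than Slc3a2 and Slc7a11 were tested for 13 genes, 9 positive and 4 negative, with a median of 0.084. Slc1a3, a glutamate transporter, was at 0.45 ± 0.17 (SE; limma unadjusted p = 0.021, adjusted p = 0.98), and the only such p in the list. Slc3a1 was at 0.54 ± 0.26 (SE). The CD98 partners Slc7a6 and Slc7a8 were at 0.26 ± 0.13 and 0.51 ± 0.31, and the leucine transporter Slc7a5, another partner, at 0.13 ± 0.29. Slc7a5 turned in sign without casein 6 (-0.0079) or soy 147 (-0.072).

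Enzymes of asparagine, aspartate, glutamate and proline metabolism were tested for 11 genes, 5 positive and 6 negative, with a median of -0.012 and none with an unadjusted p under 0.05. The values were 0.22 ± 0.15 (SE) for the asparaginase Asrgl1, -0.11 ± 0.12 for Odc1, of polyamine synthesis, -0.19 ± 0.23 for the alanine aminotransferase Gpt and 0.07 ± 0.12 for Aldh18a1, of proline synthesis. Genes of mTORC1, the growth kinase complex that amino acids activate, and of its leucine sensing arm were tested for 21 genes, 14 positive and 7 negative, with a median of 0.027. Rraga, a GTPase that recruits mTORC1 to the lysosome, was at -0.26 ± 0.12 (SE; limma unadjusted p = 0.047, adjusted p = 0.98). Nprl3, a subunit of the inhibitor GATOR1, and Castor1, an arginine sensor, were at 0.20 ± 0.10 and 0.20 ± 0.12, and the mTOR inhibitor Deptor at -0.26 ± 0.16.

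ER chaperones and unfolded protein response genes were tested for 16 genes, 5 positive and 11 negative, with a median of -0.067. The protein disulphide isomerases Pdia4 and Pdia3 were at -0.26 ± 0.09 (SE; limma unadjusted p = 0.014) and -0.22 ± 0.09 (SE; limma unadjusted p = 0.032), both with an adjusted p of 0.98. Calr was at -0.14 ± 0.08, Sel1l, of ER-associated degradation, at 0.13 ± 0.10, and Hspa5, the chaperone BiP, at 0.02 ± 0.09, which turned to -0.0011 under median centring and -0.019 under quantile normalization. Hspa5 also turned without soy 155 (-0.019) or soy 157 (-0.0049). Without the 4 arrays of highest muscle signal 6 of the 16 were negative and the median was 0.027. Glutathione and NRF2 target genes, which share a regulator with Slc7a11, were tested for 11 genes, 5 positive and 6 negative, with a median of -0.007. Gpx1, a glutathione peroxidase, was at 0.22 ± 0.09 (SE; limma unadjusted p = 0.034, adjusted p = 0.98), Txnrd1 at -0.12 ± 0.08, Gclc, of glutathione synthesis, at 0.23 ± 0.16 and Nqo1 at -0.19 ± 0.16. Over the alternatives the list median ran from -0.055 to 0.04 for eIF2 control, -0.114 to 0.041 for ATF4 and CHOP targets, 0.006 to 0.202 for transporters, -0.058 to 0.081 for asparagine to proline enzymes, -0.039 to 0.093 for mTORC1 and -0.072 to 0.09 for glutathione and NRF2 genes. Of these 6 lists, transporters alone kept the sign of the median throughout. The tRNA charging genes, not among the 6, also kept it, from -0.148 to -0.037. The plot of related lists shows all of these genes.

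**Figure D4:**
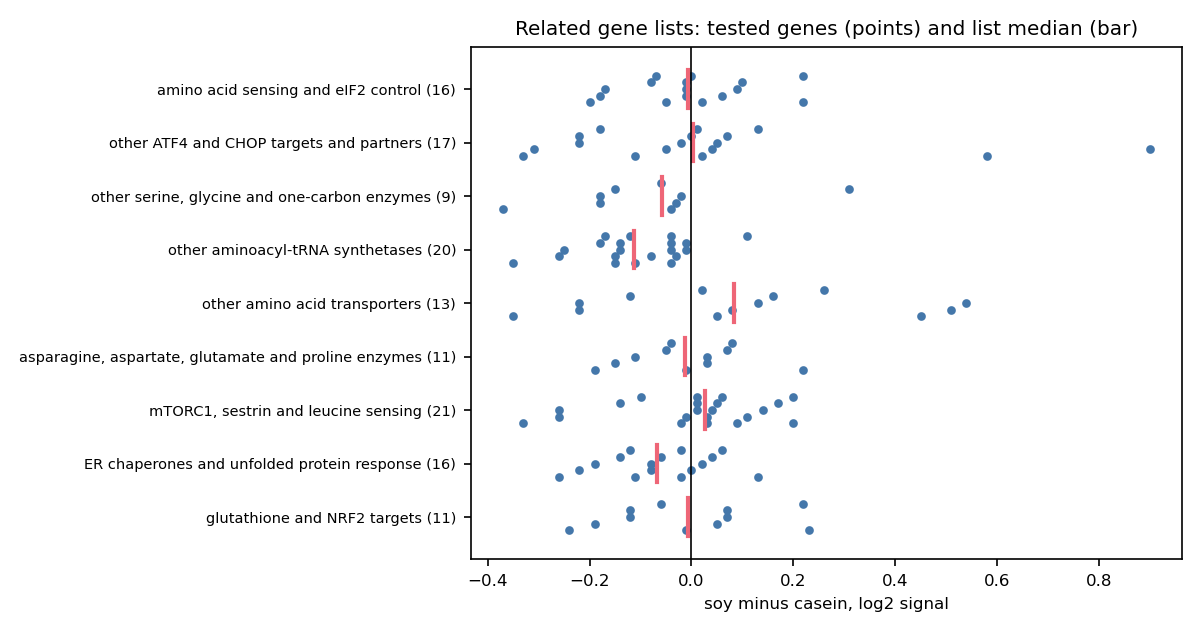
Soy minus casein difference in log2 signal (x axis) of each tested gene (points) in 9 lists of related genes (number tested in brackets), with the list median as a bar; vertical position within a list only spreads the points. Medians lie between -0.112, for the tRNA charging genes, and 0.084, for the amino acid transporters, and Nupr1 is the point at 0.90.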

How the data were processed

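Biotin-labelled cRNA from whole mammary glands was hybridised to 1-colour arrays, 1 per sample, per the labels. The authors deposited 1 intensity for every probe set, linear and not logged; MAS5 is named in the submitters' processing notes, and its version and parameters were not given in the sources used here. The 2% trimmed mean was 500.1 on every array, so this scaling was kept. The number of arrays limits the precision. From the deposited intensity, signals below 1 were set to 1 and log2 taken. Of 15866 probe sets without controls, 12783 had 1 gene symbol, 312 several and 2771 none. The 9520 with a mean log2 signal at or above the 40th percentile (7.47, a signal of 177.1) were compared in limma 3.58.1 under R 4.3.3 (lmFit, then eBayes with trend), two-sided. Benjamini-Hochberg adjustment ran over all of them, at a threshold of 0.05. Differences are soy minus casein. The brightest probe set stood for a gene in lists.

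Correlations used 100000 permutations, two-sided, or all permutations for 8 or fewer arrays. All 10 member probe sets matched a RefSeq gene identifier, and 0 symbols changed. The genes named are the members, up to 4 of each list by smallest p, and Slc7a5, Eif2ak4, Psph, Shmt2, Farsa, Fars2, Atf3 and Hspa5; for likeness, the 3 highest r per member. The members and lists were chosen with earlier results of these data known. The steps were tested on simulated data. The alternatives were other normalizations, filters, log offsets, variance models and covariates, array weights, and leaving out arrays.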

Additional observations from a re-analysis of the deposited data

Results flagged for a closer look

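In groups of 5 arrays, 6 values lay far from the others of their diet by Dixon's criterion (gap over range above 0.71), among 102 groups of the member probe sets and named list genes; chance gives about 1 in 20. None was a member. Cbs was at 8.50 in soy 147, against 7.64 to 7.83 in the other soy arrays, and Gclc at 8.65 in soy 147, against 7.81 to 8.05. Hars1 was at 7.54 in soy 155, against 8.04 to 8.16, and Aldh18a1 at 9.81 in soy 155, against 9.44 to 9.53. Odc1 was at 9.36 in soy 149, against 9.86 to 9.95. For Calr, casein 18 lay at 12.21 and the rest of its diet between 12.01 and 12.06.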

How the results depend on the processing

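No probe set passed the adjusted test in limma under any of the 23 alternatives, where 272 to 843 had an unadjusted p under 0.05. Atf4, Asns and Slc3a2 kept their sign in each. So did Farsb, but it was chosen by its diet difference, and this supports nothing. Its diets do not overlap, so leaving out arrays could not turn its sign. Other member values are small against their errors. Of 236 member values set beside the main fit, 24 turned in sign, 4 of them at the untested Trib3 probe set 1370694_at (0.68 without the 4 arrays of highest muscle signal). The 236 include the exact permutation tests of members, which repeat the main difference and could not turn in sign. With 1 array left out, the difference ran from -0.068 to 0.067 for Ddit3, -0.069 to 0.24 for Phgdh, -0.16 to 0.048 for Psat1, -0.08 to 0.051 for Eif2ak4, -0.072 to 0.37 for Slc7a5, -0.14 to 0.11 for Shmt2 and -0.019 to 0.07 for Hspa5. Of 41 named list genes, 4 turned in sign this way, and 18 kept it but moved by over 1.5 times, among them Gcsh (-0.24 to -0.026), Gpt (-0.37 to -0.037), Odc1 (-0.16 to -0.0086), Aldh18a1 (0.0006 to 0.14) and Gclc (0.09 to 0.30). Ddit3 was at 0.016 with array weights and 0.0044 without casein 6 and soy 149, where Phgdh was at -0.10 and Shmt2 at 0.0097. With the muscle signal as a covariate Ddit3 was at 0.028, Psat1 at 0.11, Eif2ak4 at 0.016, Shmt2 at 0.085 and Farsa at 0.017. Without the 4 arrays of highest muscle signal Ddit3 was at 0.071, Psat1 at 0.11, Slc7a5 at -0.0099, Gcsh at 0.20, Odc1 at 0.0068, Sel1l at -0.0024, Gclc at -0.01 and Nqo1 at 0.09. With the actin ratio as a covariate Phgdh was at -0.23 and Hspa5 at -0.011; Hspa5 was at -0.0011 under median centring and -0.019 under quantile normalization. The causes were not tested. No paired analysis was possible because the diets share no replicate numbers. Detection calls were not used here, so the low Trib3 signals could not be set against background.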

Other observations

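Chac1, a glutathione-degrading enzyme and a target of ATF4 and CHOP, falls outside the rule for named genes and was picked after its values were seen. Its log2 signal was 10.58 in soy 147 and 7.57 to 7.77 in the other 4 soy arrays, with 7.44 to 7.89 in casein. In the same array Ddit3 (7.77) and Trib3 at 1370694_at (4.61) had their lowest values and Slc7a5 (8.63), Slc38a2 (10.44) and Slc3a2 (10.90) their highest, while Trib3 at 1386321_s_at (7.40) lay within the range of the others. Phgdh (9.88) and Psat1 (10.74) were also lowest in soy 147, and Asns (9.51) was next to its lowest.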
